A study of Mus musculus with 8 samples.

Results

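Acyl-CoA synthetases join a fatty acid to coenzyme A at the cost of ATP, and only the resulting acyl-CoA can be built into phospholipids and triglycerides, elongated, desaturated or oxidized. The genes described here are the ACSL family, for long-chain fatty acids (*Acsl1*, *Acsl3*, *Acsl4*, *Acsl5* and *Acsl6*), the ACSM family, mitochondrial enzymes for medium-chain fatty acids (*Acsm1*, *Acsm2*, *Acsm3* and *Acsm5*), and *Acss3*, a mitochondrial enzyme for short chains such as propionate. They were chosen by name, as the probes whose transcript accession maps to these symbols in the mouse RefSeq table, which gave 10 of 22911 named genes and 18 of 56605 probes. Of these, 9 genes and 15 probes passed the filter on dim probes, against 14065 genes and 29067 probes of the whole array.

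The livers came from male C57BL/6 mice aged 10 weeks, 4 of them *Agpat3* WT and 4 *Agpat3* KO, and the total RNA of each was hybridized to 1 one-color Agilent array with Cy3 as the dye. AGPAT3 is an acyltransferase that takes docosahexaenoic acid (DHA) from its CoA ester, the product of an acyl-CoA synthetase, into the precursor of membrane phospholipids. The study describes this KO as global, so that the gene was missing in every cell type and not in hepatocytes alone, and the array experiment asked which genes differ in liver without the enzyme. The allele and the feeding state of the mice are not given in the sources used here. The labels number the livers within each genotype, and the p-values measure the spread between these livers.

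In *Agpat3* KO liver *Acss3* was the 1 member gene that rose under the call used here (more than 1.5-fold with a limma adjusted p below 0.2), by 2.00-fold. That reading rests on 1 dim probe. With another background correction (normexp) its log2 fold change was 0.35 and the call was lost. Among the long-chain enzymes, the probes of *Acsl3* were 1.96-fold and 1.90-fold higher in KO, and the dimmer of the 2 was called, while *Acsl5* was 1.48-fold higher with an adjusted p of 0.0492 from limma, just under the fold change required. *Acsl1*, the main long-chain synthetase of liver, had a log2 fold change of -0.03, with a 95% confidence interval from -0.32 to 0.25. Of the medium-chain enzymes, *Acsm1*, *Acsm3* and *Acsm5* had log2 fold changes between -0.04 and 0.05, and *Acsm2* had one of -0.59 that was not called.

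The start regions of 3 long-chain synthetase genes are shown because these genes differed in their values while all make the same kind of product. A further reason was that 18 of 22 listed targets of the lipogenic factor SREBP1 were called higher, against 1.01% of all genes tested. These targets were listed with earlier results of these data known. Each RefSeq sequence runs 5′ to 3′ on the strand of the gene, from 250 bases before to 50 after a RefSeq start in GRCm38.p6, and capitals mark matches to any of 4 motifs searched on both strands. These were an SRE-type motif (TCACNCCAC, found in 1.24% of 32851 promoters of the same length), the E-box CACGTG (7.15%), the CCAAT box (37.4%) and the GC box GGGCGG (35.7%), of which the first and the E-box are letters known from SREBP1 targets. The *Acsl3* sequence lies at chr1:78657575-78657874 (+ strand), that of *Acsl5* at chr19:55253119-55253418 (+ strand), and that of the downstream start of *Acsl1* at chr8:46490716-46491015 (+ strand).
Acsl3: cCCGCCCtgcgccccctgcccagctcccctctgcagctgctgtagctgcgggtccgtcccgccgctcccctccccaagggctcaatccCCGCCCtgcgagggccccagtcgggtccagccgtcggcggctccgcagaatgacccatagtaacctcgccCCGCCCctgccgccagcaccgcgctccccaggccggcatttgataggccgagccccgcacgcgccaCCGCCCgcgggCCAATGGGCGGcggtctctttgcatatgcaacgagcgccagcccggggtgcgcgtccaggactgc
Acsl5: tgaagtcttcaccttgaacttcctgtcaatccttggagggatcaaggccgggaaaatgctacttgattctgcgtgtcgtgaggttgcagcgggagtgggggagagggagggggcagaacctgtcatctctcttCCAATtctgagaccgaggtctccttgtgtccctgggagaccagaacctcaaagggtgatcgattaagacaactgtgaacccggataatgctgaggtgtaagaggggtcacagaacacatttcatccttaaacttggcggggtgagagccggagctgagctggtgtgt
Acsl1: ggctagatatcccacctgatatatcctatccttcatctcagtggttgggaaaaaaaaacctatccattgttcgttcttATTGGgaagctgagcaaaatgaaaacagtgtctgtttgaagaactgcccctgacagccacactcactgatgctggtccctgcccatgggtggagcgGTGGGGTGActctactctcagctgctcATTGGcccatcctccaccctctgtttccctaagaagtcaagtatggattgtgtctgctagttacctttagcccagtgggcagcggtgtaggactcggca
The *Acsl3* promoter, with 74.0% G and C, held 6 matches, namely 5 GC boxes and a CCAAT box that ends at base 240 where a GC box begins at base 241. The *Acsl5* promoter, with 53.0% G and C, held 1 match, a CCAAT box at bases 134 to 138. The *Acsl1* sequence held an SRE-type match at bases 175 to 183 of the printed strand (as the reverse complement) and CCAAT boxes at bases 79 to 83 and 202 to 206. The other start of *Acsl1*, which lies upstream and is not printed, held 7 GC boxes and no SRE-type match. Which start of *Acsl1* is used in these livers was not tested. Entries were found for 9 of the 10 members, with 13 promoters in all, and *Acss3* had none. Matches are overlaps of letters and not sites of binding. Among the 13 promoters the 1 SRE-type match was that of *Acsl1*, and the 1 E-box was in *Acsm5*.

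All 8 arrays shared 1 slide, WT in row 1 and KO in row 2, and row and genotype therefore cannot be told apart. Between 29885 and 31886 probes were well above background on each array, no spot was saturated, and any pair of arrays correlated over the tested probes with r of 0.985 or more. Values are given as the log2 of the signal minus the log2 of that array's 75th percentile, so a value of 0 stands for the 75th percentile, and values of different probes are not compared as levels. The targeted gene *Agpat3* had log2 signals of 5.65, 5.66, 5.80 and 5.88 in the WT livers and -0.48, 0.02, -0.58 and -0.47 in the KO livers, a log2 fold change of -6.12 (limma adjusted p = 4.46e-07). Its probes were still well above background on the KO arrays. The 10 hepatocyte markers checked, among them albumin, were all detected and none was called. In whole liver, fewer cells of a type and less RNA per cell cannot be told apart.

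*Acsl5* encodes a long-chain synthetase of the endoplasmic reticulum and the mitochondrial outer membrane that is abundant in intestine and liver. Its probe gave log2 signals of 4.31, 4.47, 4.44 and 4.35 in WT livers 1 to 4 and of 4.89, 4.83, 5.18 and 4.91 in KO livers 1 to 4. Every KO liver lay above every WT liver, with KO liver 3 highest. The mean went from 4.39 ± 0.08 to 4.95 ± 0.15 (SD, n = 4 each), which is a log2 fold change of 0.56 (95% confidence interval 0.36 to 0.77, standard error 0.09, limma adjusted p = 0.0492). As a fold this was 1.48, with an interval from 1.28 to 1.71 that spans the required 1.5. The exact permutation test gave p = 0.0286 (two-sided), the smallest that 4 livers against 4 allow. With 1 array left out at a time the log2 fold change lay between 0.49, without KO replicate 3, and 0.61. The limma adjusted p then lay between 0.0599 and 0.128. *Acsl5* was called only without WT replicate 2 or KO replicate 2, where the change was 0.59 or 0.61.

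*Acsl3* encodes an enzyme of the endoplasmic reticulum and of lipid droplets, where it activates fatty acids for neutral lipid and phospholipid synthesis. The brighter probe gave -1.67, -0.48, -0.68 and -0.23 in the WT livers and -0.17, 0.06, 0.48 and 0.44 in the KO livers. The groups did not overlap, but WT liver 4 lay just below KO liver 1, and WT liver 1 lay far below the other WT livers. From -0.76 ± 0.63 to 0.20 ± 0.31 (SD, n = 4 each), the log2 fold change was 0.97 (standard error 0.30, 95% confidence interval 0.27 to 1.66), and with a limma adjusted p of 0.231 it was not called. It was 0.67 without WT replicate 1. The dimmer probe gave -2.89, -1.82, -2.08 and -1.84 in WT and -1.33, -1.24, -1.06 and -1.30 in KO, with the same WT liver lowest and a clear gap between the groups. Its log2 fold change was 0.93 (95% confidence interval 0.41 to 1.44, standard error 0.23, limma adjusted p = 0.141) and was called. The call was lost without WT replicate 3 or any single KO replicate, where the adjusted p lay between 0.221 and 0.28, in a check chosen after the data were seen. The probes thus fall on opposite sides of the threshold with nearly the same change, and their deviations from the genotype means correlated over the 8 arrays (r = 0.92).

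*Acsl4* encodes the long-chain synthetase that prefers arachidonic acid and other polyunsaturated fatty acids. Its brightest probe gave 4.27, 3.89, 3.95 and 3.99 in the WT livers and 4.21, 4.44, 4.64 and 4.09 in the KO livers. The groups overlapped, since WT liver 1 lay above KO livers 1 and 4. The mean went from 4.02 ± 0.17 to 4.34 ± 0.25 (SD, n = 4 each), or a log2 fold change of 0.32 (95% confidence interval 0.01 to 0.64, limma adjusted p = 0.369), which was not called. The other 2 probes gave 0.34 and 0.33, also not called, and the 3 probes placed the livers alike (r of their deviations 0.94 to 0.98). As a fold, the interval of the brightest probe ran from 1.00 to 1.56.

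*Acsl1* encodes the synthetase that supplies much of the acyl-CoA for triglyceride synthesis and oxidation in liver, fat and muscle, and is known as a PPARα target. In the WT livers its log2 signals were 7.79, 7.41, 7.84 and 7.34, and in the KO livers 7.54, 7.56, 7.55 and 7.58. The KO livers lay within the WT range, with an SD of 0.02 against 0.26 in WT. WT livers 1 and 3 were high and WT livers 2 and 4 low, and the other probe of *Acsl1* placed them the same way, with 4.92 and 4.76 against 4.41 and 4.23 (r of the deviations of the probes 0.84). That probe gave KO values between 4.44 and 4.78 and a log2 fold change of 0.02 (95% confidence interval -0.34 to 0.38). With other scalings and background correction the brighter probe gave changes from -0.07 to 0.01, and with 1 array left out from -0.12 to 0.05, so the sign was not fixed. *Acsl6*, best known from brain, had 2 probes with intensities of 2.67 to 13.6 units, well above background on 0 of the 8 arrays, so no fold change is given.

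The 4 ACSM genes lie together on chromosome 7, with starts in the order *Acsm5*, *Acsm2*, *Acsm1* and *Acsm3* in GRCm38.p6. *Acsm1* gave 5.09, 5.30, 5.22 and 5.36 in the WT livers and 5.20, 5.30, 5.20 and 5.16 in the KO livers, with a log2 fold change of -0.03 (95% confidence interval -0.20 to 0.15, limma adjusted p = 0.918). *Acsm3* gave 3.89, 3.82, 4.00 and 3.89 in WT and 3.78, 3.87, 3.86 and 3.93 in KO, with a change of -0.04 (95% confidence interval -0.19 to 0.12, limma adjusted p = 0.851). *Acsm5* gave 3.78, 3.64, 3.72 and 3.75 in WT and 3.79, 3.67, 3.65 and 3.97 in KO, with a change of 0.05 (95% confidence interval -0.15 to 0.25, limma adjusted p = 0.853). In these 3 genes the groups overlapped, and the intervals leave out a change of 1.5-fold in either direction.

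*Acsm2*, whose product also activates medium-chain fatty acids and, besides these, benzoate, was the member with the lowest fold change. Its brighter probe gave -0.52, -1.02, -0.75 and -0.73 in the WT livers and -1.63, -0.97, -1.68 and -1.09 in the KO livers. KO livers 1 and 3 were low, while KO liver 2 lay just above WT liver 2, so the groups overlapped. The mean went from -0.75 ± 0.21 to -1.34 ± 0.37 (SD, n = 4 each), which is a log2 fold change of -0.59 (95% confidence interval -1.02 to -0.16, standard error 0.19, limma adjusted p = 0.237) and a fold of 0.665. It was not called. The exact permutation test gave p = 0.0571 (two-sided). The dimmer probe gave -0.58 (95% confidence interval -1.19 to 0.03, limma adjusted p = 0.400), was well above background on 4 WT and 3 KO arrays, and ordered the deviations of the livers much as the brighter probe did (r = 0.91).

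*Acss3* was read from a dim probe, with intensities of 18.8 to 31.5 units in WT and 44.3 to 64.6 units in KO, after subtraction of a local background whose median on these arrays was 27 to 32 units. The probe was well above background on all 8 arrays. Its log2 signals were -3.91, -3.46, -3.29 and -3.22 in the WT livers and -2.75, -2.63, -2.18 and -2.34 in the KO livers. Every KO liver lay above every WT liver (exact permutation test, two-sided, p = 0.0286), and WT liver 1 was lowest, as for *Acsl3*. The mean went from -3.47 ± 0.31 to -2.47 ± 0.26 (SD, n = 4 each), which is a log2 fold change of 1.00 (95% confidence interval 0.59 to 1.41, standard error 0.18, limma adjusted p = 0.0721). With normexp background correction, which adds an offset of 50 units, the change was 0.35 and the call was lost. The second probe of *Acss3* was well above background on 0 arrays and gave no second reading. *Acss3* lies on chromosome 10, as does the targeted gene *Agpat3* and no other member. Whether this shared chromosome bears on its values was not tested.

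**Figure D1:**
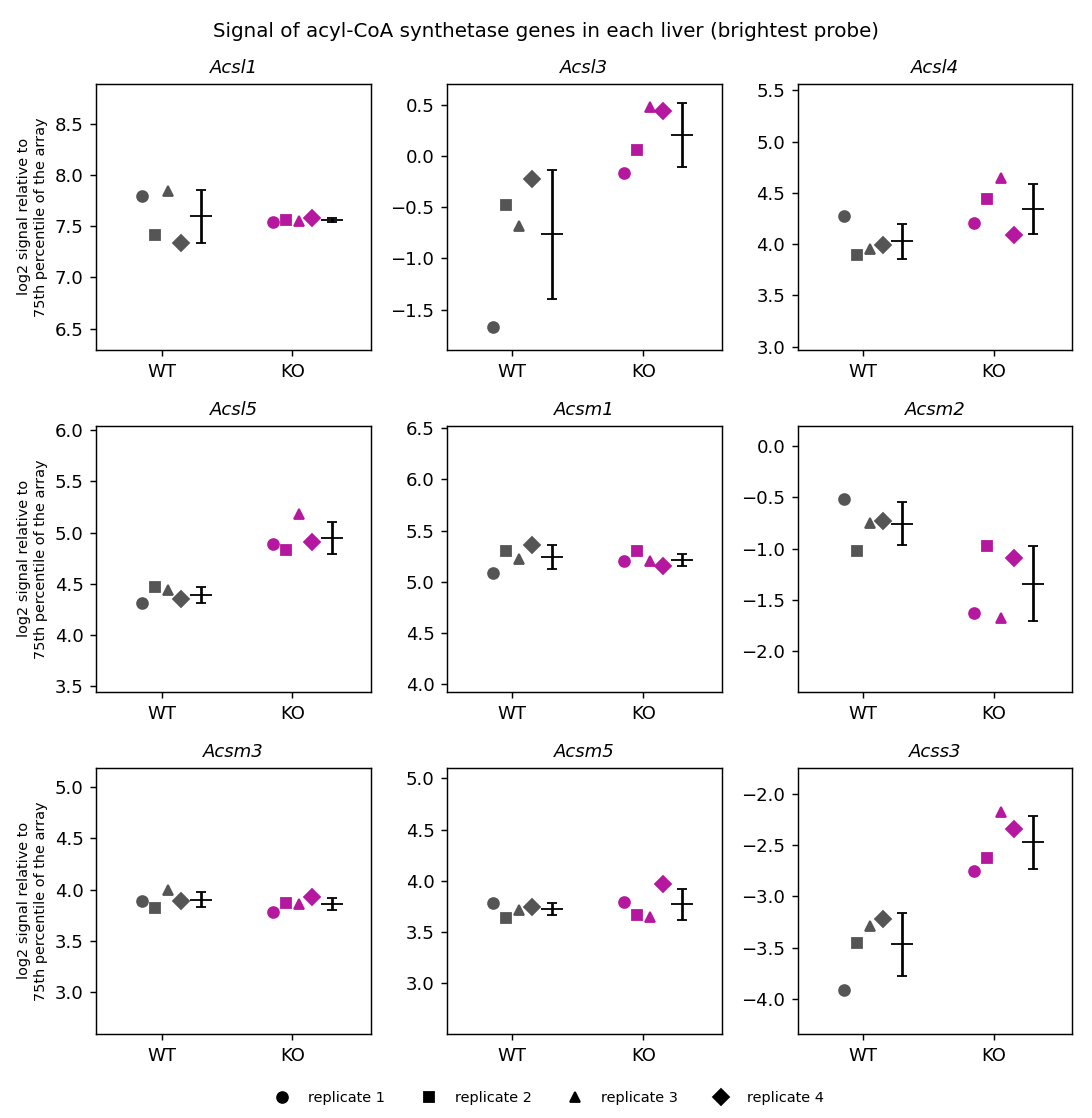
Log2 signal of the brightest probe of each of the 9 tested member genes, relative to each array's 75th percentile, in 4 WT (grey) and 4 KO (magenta) livers, with the symbol showing the replicate number and the bar the mean ± SD. *Acsl3*, *Acsl5* and *Acss3* have every KO liver above every WT liver, and the axes start at different values but span the same number of log2 units.

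Counted over the family, 1 of 9 member genes was called higher, against 1.01% of all genes tested, and 0 of 9 were called lower by limma, against 0.754%. At an unadjusted p with the same limits, limma put 2 of the 9 higher and 1 lower, against 1.92% and 1.61% of all genes. The methods' t-test gave the same 2 counts unadjusted, against 1.86% and 1.53%, and 1 higher and 0 lower after Benjamini-Hochberg adjustment, against 0.611% and 0.37%. By probes, 2 of 15 were called higher (one each of *Acss3* and *Acsl3*), against 0.939% of all probes tested, and 0 of 15 lower, against 0.726%. Every KO liver lay above every WT liver in 3 of the 9 genes (*Acsl3*, *Acsl5* and *Acss3*), against 3.84% of all genes, and below in 0 of 9, against 5.89%. The median log2 fold change of the 9 genes was 0.05, next to -0.03 over all genes tested.

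**Figure D2:**
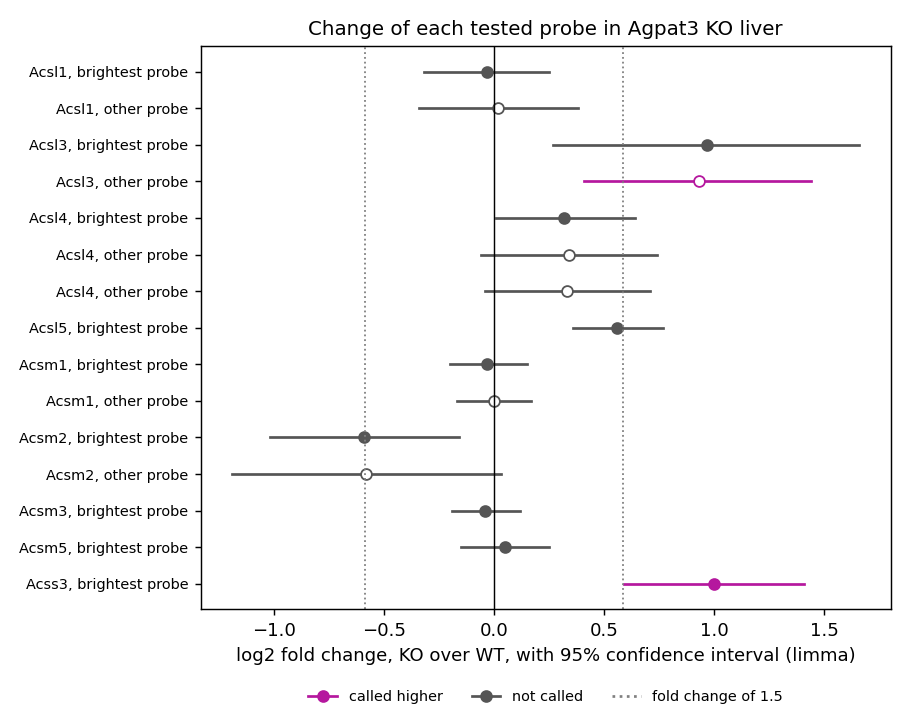
Log2 fold change of each of the 15 tested member probes, KO over WT, with the 95% confidence interval from limma; filled points are the brightest probe of a gene, magenta marks called probes and dotted lines a fold change of 1.5. Probes of the same gene lie close together, and the intervals of *Acss3*, of *Acsl5* and of both *Acsl3* probes lie above 0, as does narrowly that of the brightest *Acsl4* probe, that of the brightest *Acsm2* probe lies below 0, and those of the other tested probes include it.

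The ratio of 2 members within an array does not depend on how the array was scaled, and shows whether the members changed unequally. *Acsl5* over *Acsl1* gave log2 ratios of -3.49, -2.94, -3.40 and -2.99 in the WT livers and -2.65, -2.73, -2.37 and -2.67 in the KO livers. All KO ratios lay above the WT ratios, by 0.60 in the mean (exact permutation test, two-sided, p = 0.0286, and 0.114 after Benjamini-Hochberg adjustment over the 6 ratios computed). *Acsl3* over *Acsl1* changed by 1.00 and *Acsl4* over *Acsl1* by 0.36 (each p = 0.0571, exact permutation test, 0.114 adjusted), with groups that overlapped. Without WT replicate 1 the change of *Acsl3* over *Acsl1* was 0.63 and no longer passed (exact permutation test, adjusted p = 0.229). *Acsm2* over *Acsm1* differed by -0.56 (exact permutation p = 0.0857, 0.129 adjusted), whereas *Acsm3* and *Acsm5* over *Acsm1* differed by -0.01 and 0.07 (exact permutation p = 0.971 and 0.571). With the adjusted p under 0.2, 4 of the 6 ratios passed. Those of *Acsl3*, *Acsl4* and *Acsl5* share *Acsl1* as the denominator, so they are not separate results. With 1 array left out at a time the number of ratios that passed lay between 0, without KO replicate 3, and 4.

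**Figure D3:**
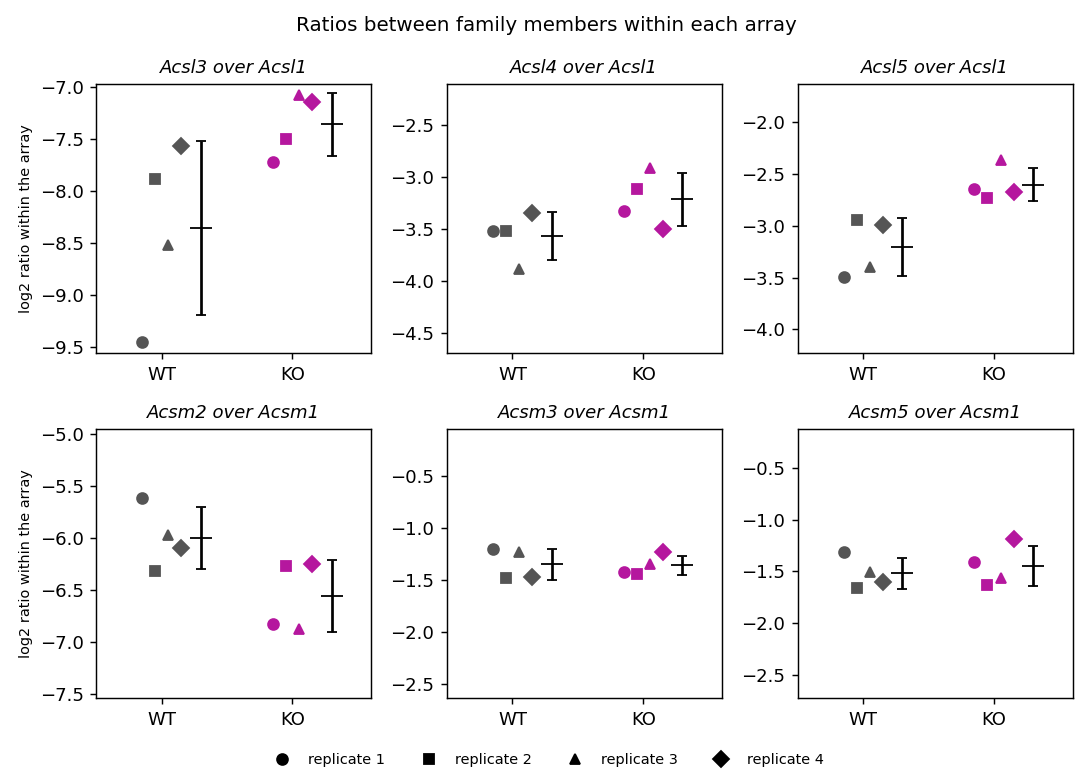
Log2 ratio between the brightest probes of 2 family members within each array, for 4 WT (grey) and 4 KO (magenta) livers, with mean ± SD; the height of a ratio reflects the probes and only the step between genotypes is read. *Acsl5* over *Acsl1* is the 1 ratio of 6 in which the groups are fully apart.

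The wider superfamily was read from a list of 16 other synthetase genes, of which 11 were tested. Of the 11, 2 were called higher, against 1.01% of all genes tested, and 0 lower, against 0.754%. These 2 were *Acss2*, the cytosolic enzyme that activates acetate for lipid synthesis, and *Aacs*, which activates acetoacetate for the same use. *Acss2* went from 4.45 ± 0.29 to 5.46 ± 0.44 (SD, n = 4 each), a fold of 2.02 (limma adjusted p = 0.119) with no overlap of the groups. *Aacs* went from 3.28 ± 0.82 to 4.97 ± 0.48 (SD, n = 4 each), a fold of 3.21 (limma adjusted p = 0.137) with overlap. Neither was called without WT replicate 3, without KO replicate 1 or with the methods' t-test after adjustment, checks chosen after the data were seen. *Acss1*, the mitochondrial counterpart for acetate, had a log2 fold change of -0.26, which was not called. The fatty acid transport proteins, which activate very long chains or bile acids, were not called either, with 0.09 for *Slc27a1*, -0.09 for *Slc27a2*, 0.07 for *Slc27a3*, -0.19 for *Slc27a4* and -0.03 for *Slc27a5*. *Acsf2*, *Acsf3* and *Aasdh* had -0.08, 0.06 and 0.06. Not tested, for lack of signal over background, were *Acsbg1*, *Acsbg2*, *Acsbg3*, *Acsm4* and *Slc27a6*.

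**Figure D4:**
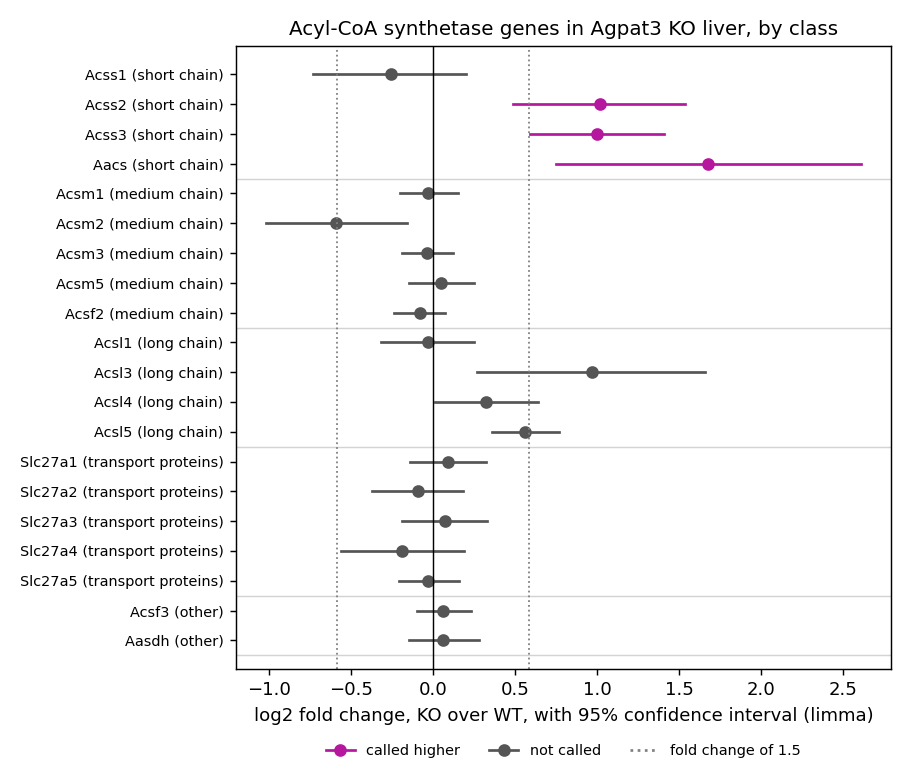
Log2 fold change, KO over WT, with the 95% confidence interval from limma, of the brightest probe of 20 tested acyl-CoA synthetase genes, grouped by the chain length they are known for; magenta marks called genes and dotted lines a fold change of 1.5. The 3 called genes, *Acss2*, *Acss3* and *Aacs*, are in the short-chain group. Its other tested gene, *Acss1*, was not called, at -0.26 with an interval from -0.73 to 0.20. The grouping serves the display and was not tested.

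Genes of coenzyme A and of pathways that use its acyl esters were described from lists in the same way. None of the 14 genes of coenzyme A synthesis and breakdown was called, with a median log2 fold change of 0.09. Nor was any of 7 acyl-CoA binding genes (median 0.02), 4 genes of acyl conjugation to amino acids (median 0.02) or 17 genes of carnitine transfer and oxidation (median 0.01). Of 19 genes of glycerolipid and cholesterol ester synthesis, 1 was called higher, and the median was -0.03. The called gene was *Gpam*, the mitochondrial acyltransferase of the first step of glycerolipid synthesis, with a log2 fold change of 1.07 (limma adjusted p = 0.0283). The list of SREBP1 targets, written with earlier results of these data known, holds *Acss2*, *Aacs* and *Gpam* but no member. Of its 22 genes, 18 were called higher, against 1.01% of all genes tested, and 0 lower, against 0.754%, with a median of 1.02. One of them, *Pnpla3*, was well above background on 1 WT array and passed the filter through its KO values, and of the 21 detected on all 8 arrays 17 were called. The count of 18 was 11 without WT replicate 3 and 11 without the filter on dim probes, both also tried after the data were seen. No gene of 25 PPARα targets tested was called in either direction (median 0.10), and the list does not hold *Acsl1*. Since 1.01% of all genes tested were called higher and 0.754% lower, a list this short often holds no called gene. The same goes for the other lists without a call.

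Among markers of other cells, *Marco*, a receptor of Kupffer cells, was the 1 called lower of 10 tested Kupffer cell and leukocyte markers. Its log2 fold change was -1.22 (limma adjusted p = 0.0983), and the changes of the 10 markers ran from -1.22 to 0.04. The other 9 were not called, the median of the 10 was -0.15, and the log2 of their summed signal was 6.09 to 6.61 in WT and 5.83 to 6.51 in KO. None of the tested stellate (10), endothelial (7), cholangiocyte (3 of 6), erythroid (4 of 7), adipocyte (3 of 6) or pancreatic acinar (5 of 8) markers was called. Their part in the values of the synthetase genes was not tested.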

How the data were processed

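Total RNA of the frozen livers was labeled with Cy3 and hybridized to one-color Agilent arrays. The authors deposited the processed intensity of every spot, made with Agilent Feature Extraction 10.7.1.1, on a linear scale after background correction, with flags for outlier, saturated and well-above-background spots. They also deposited log2 values for all arrays, which were checked against the log2 intensity minus the 75th percentile of the array (median differences of -0.0085 to -0.0029, column medians of -3.53 to -3.43) and served as an alternative. The scanner output names another mouse build than the RefSeq table (GRCm38.p6), so that table was used for names (32994 of 56605 probes matched), and coordinates come from the RefSeq promoter table of GRCm38.p6.

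Control and outlier spots were left out, each array's 75th percentile was subtracted on the log2 scale, and replicate spots were averaged. The filter kept a probe (29067 in all) where every array of WT, of KO or of both showed it well above background. Genotypes were compared in R 4.3.3 by limma 3.58.1 (lmFit, eBayes), two-sided, with Benjamini-Hochberg adjustment over the probes kept. Genes were called where they differed more than 1.5-fold with an adjusted p below 0.2, as in the study's volcano plot, whose legend leaves the adjustment unstated, and were read from their brightest probe. An exact permutation test over all 70 assignments was added for members and ratios. Python 3.11.15 with matplotlib 3.10.9 drew the figures. The number of arrays limits the precision, as does low signal for dim probes. Cross-hybridization between related genes was not tested.

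The members and lists were chosen with earlier results of these data known. Named are every member with its probes, *Agpat3*, the called genes of a list, the uncalled genes of the synthetase list, and the 3 genes most like the called member with the largest change. PPARα targets with values in the closing section were chosen after their values were seen. The test was tried on simulated data first. Alternatives were normexp with an offset of 50 (run on the median spot signal), quantile normalization, median centring, the deposited log2 values, other filters and thresholds, a replicate block, the methods' t-test, probes averaged per gene, and each array left out in turn.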

Additional observations from a re-analysis of the deposited data

How the results depend on the processing

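The fold change of *Agpat3* lay between -6.26 and -5.77 over all alternatives. The number of member genes called higher (1) was 2 with a replicate block, with probes averaged per gene, with no minimum fold and with the unadjusted p, 0 at an adjusted p under 0.05, and between 1 and 2 with 1 array left out, with 2 without WT replicate 2, WT replicate 4 or KO replicate 2. The number called lower (0) was 1 with median centring, where *Acsm2* was called (-0.63, limma adjusted p = 0.193), and 1 with the unadjusted p, and stayed at 0 with any array left out. *Acsl3* was called at its brighter probe with normexp (0.78), without WT replicate 4 (1.14) and with the replicate block (0.97, limma adjusted p = 0.129), and as the mean of both its probes (0.95). Same-numbered WT and KO samples deviated with correlations of 0.331, -0.108, 0.104 and 0.319 over the probes, and the best-matching KO sample had the same number for WT 1, 3 and 4 but not for WT 2. The labels name nothing that equal numbers share, and these correlations, of which 1 was negative, do not settle whether the numbers pair the samples. The main fit therefore holds no pairing, and the replicate block is given as an alternative. The dimmer *Acsl3* probe was not called without the filter (0.93, limma adjusted p = 0.329). *Acss3* was not called with normexp (0.35, limma adjusted p = 0.126) and, at the same threshold, was called under the 17 other changes of scaling, filter, fit or arrays, with an adjusted p of at most 0.184.

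Of the other synthetases 2 were called higher, against 0 without the filter, 0 at an adjusted p under 0.05, 0 with the methods' t-test, and between 0 and 2 with 1 array left out (1 without WT replicate 1, WT replicate 2, KO replicate 2 or KO replicate 3). The number of ratios that passed (4) was between 0 and 4 with 1 array left out (1 without WT replicate 1 or KO replicate 2, 2 without WT replicate 3 or KO replicate 1). Changes near 0 took the other sign, namely *Acsl1* with 0.01 after quantile normalization, *Acsm1* with 0.05 under normexp and *Acsm5* over *Acsm1* with -0.01 under normexp. With 1 array left out, these and others near 0 spanned both signs, with -0.12 to 0.05 for *Acsl1*, -0.08 to 0.01 for *Acsm1*, -0.02 to 0.09 for *Acsm5*, -0.06 to 0.03 for *Acsm3* over *Acsm1* and -0.01 to 0.14 for *Acsm5* over *Acsm1*. The cause of these differences was not tested.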

Other observations

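Within a genotype the livers differed in ways that several members shared. By the brightest probes, KO liver 3 was the highest KO liver for *Acsl3*, *Acsl4*, *Acsl5* and *Acss3* and the lowest for *Acsm2* and *Acsm5*. WT liver 1 was the lowest WT liver for *Acsl3*, *Acsl5*, *Acsm1* and *Acss3* and the highest for *Acsl4*, *Acsm2* and *Acsm5*. After removal of the genotype means, *Acsl3* and *Acss3* correlated over the 8 livers with Pearson's r = 0.92 (0.94 within WT, 0.97 within KO, permutation p = 0.0122) and Spearman's rho = 0.79 (permutation p = 0.0347), and with r = 0.72 without the 2 livers farthest from the median. Over the 45 relations computed the adjusted p was 0.508 for r and 0.521 for rho, so this relation failed the correction.

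The mean log2 signal of the 22 SREBP1 targets was 3.63 ± 0.12 in WT and 4.88 ± 0.14 in KO (SD, n = 4 each). *Pnpla3* was well above background on 1 WT array only, and without it the mean was 4.04 ± 0.10 in WT and 5.17 ± 0.14 in KO (SD, n = 4 each). The deviations of the mean over all 22 correlated with those of *Acsl5* with r = 0.83 (0.95 within WT, 0.81 within KO, permutation p = 0.0417, adjusted 0.566) and rho = 0.55 (permutation p = 0.226, adjusted 0.846), and with r = 0.37 without the 2 farthest livers, so over the livers of both genotypes together it rests on those 2. With *Acsm5* the correlation was negative, with r = -0.82 (permutation p = 0.0226, adjusted 0.508) and rho = -0.90 (permutation p = 0.0104, adjusted 0.312), and r = -0.67 without the 2 farthest livers. With *Acsm2* r was -0.70 (permutation p = 0.0729, adjusted 0.656), and with *Acsl3* and *Acss3* it was 0.27 and 0.31. Without *Pnpla3* the r was 0.85 for *Acsl5*, -0.80 for *Acsm5* and -0.69 for *Acsm2*. None of the 45 relations passed the correction.

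Among 13557 genes well above background on all 8 arrays, the 3 whose log2 signal followed that of *Acss3* most closely over the 8 livers, both genotypes pooled, were *Snrpn* (r = 0.993), *2210417A02Rik* (r = 0.982) and *Atp9a* (r = 0.978), with log2 fold changes of 0.31, 0.42 and 0.19. None of the 3 reached a 1.5-fold change. They were picked as the highest of 13557 correlations over 8 livers, with the genotype difference left in, so a high r is built into the choice. The relations were not tested.

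Although no PPARα target was called, the values in the list ran from -0.16 to 1.29. The highest was that of *Acot3*, an acyl-CoA thioesterase that undoes the reaction of the synthetases, which went from -1.16 ± 0.47 to 0.13 ± 0.74 (SD, n = 4 each) with no overlap of the groups and a limma adjusted p of 0.201, against the 0.2 required. *Cyp4a14*, an omega-hydroxylase of fatty acids, had a log2 fold change of 1.17 with overlap of the groups (limma adjusted p = 0.457).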
